A study of Mus musculus with 24 samples.

Results

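The response of macrophages labelled FosKO to 2 h of lipopolysaccharide (LPS) was measured by RNA-seq in 6 of the 24 libraries of the series, 3 from unstimulated cells (0 h) and 3 from cells given 100 ng/ml LPS for 2 h. The cells were bone marrow-derived macrophages (BMDMs) of C57BL/6 mice described as carrying LysM-Cre and floxed Fos alleles, grown in L-cell conditioned medium and held overnight in low serum. LysM-Cre expresses the recombinase from the Lyz2 locus and thus in myeloid cells. The control BMDMs (LysM) also carried LysM-Cre, with intact Fos according to the design text or with a single floxed allele according to the study's text, and were sampled at the same times. Each genotype was also sampled after 0.5 h and 1 h of 100 ng/ml LPS, with 3 libraries at each time. These libraries entered the same fit and the time courses. High 18S rRNA was found in 19 of the 24 libraries, among them all libraries at 0 h and 2 h (18.83 to 19.35 on the log2 scale). The libraries with lower 18S rRNA were thus all from 0.5 h or 1 h, and their effect on the time courses was not tested. FosKO and LysM stand throughout for libraries labelled so. Of 24273 genes in the table, 13901 passed the filter on low values and were tested; all of them are the members described here. The labels do not say whether the libraries of a group came from separate mice, so the p-values measure the spread between libraries.

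LPS is bound by TLR4 with MD-2 and CD14, and the receptor signals through the adaptors MYD88 and TRIF. MYD88 signalling activates NF-κB and the MAP kinases and with them cytokine, chemokine and immediate early genes, while TRIF signalling activates IRF3 and the gene of IFN-β. Secreted IFN-β then acts on the same cells through its receptor and STAT factors to induce interferon-stimulated genes, and FOS, with JUN proteins, forms AP-1, a factor that is itself made within minutes of TLR4 ligation.

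Pearson's r between libraries over the tested genes was 0.9957 to 0.9973 at 0 h and 0.9979 to 0.998 at 2 h, and the median gene had an SD of 0.083 and 0.068 on the log2 scale. The 0 h libraries stood apart from each other in interferon-stimulated genes, as described with those genes. Fos itself read 12.72, 12.41 and 12.67 in the 3 FosKO libraries at 0 h and 12.93, 12.67 and 12.81 at 2 h on the deposited log2 scale. The values overlapped between times and the change of 0.20 ± 0.09 (SE) did not pass the test (limma, adjusted p = 0.054), but it did with a replicate block (0.00842), after median centring (0.0163), over the libraries with high 18S rRNA (0.041), with a minimum of 50 (0.0497) and without replicate 1 (0.0245) or 3 (0.0474) at 0 h or replicate 2 at 2 h (0.0212). After quantile normalisation the change was -0.152. In LysM libraries Fos read 11.17, 11.07 and 11.10 at 0 h and 9.61, 9.42 and 9.52 at 2 h, and fell by 1.60. At 0 h and at 2 h the Fos value was thus higher in every library labelled FosKO than in every LysM library, opposite to the direction the label implies. At 0.5 h the order was the other way, with a mean of 12.75 in FosKO and 13.52 in LysM libraries. At 1 h the means were 12.78 and 11.15. A single value per gene gives no reading of the floxed exons and does not check the deletion. Lyz2, the locus of the Cre, read 16.08, 16.12 and 16.12 at 0 h and 16.33, 16.29 and 16.33 at 2 h in FosKO libraries. It rose by 0.21 (adjusted p = 0.037), a call lost without any 1 of the 6 libraries. In LysM libraries Lyz2 read 10.90, 11.04 and 10.87 and then 11.18, 11.43 and 11.17, far below every FosKO library, although both groups are described as carrying LysM-Cre. What this gap means for the comparisons between genotypes was not tested. Macrophage markers were high in every library, with Mpeg1 at 16.80 to 16.96, Cd68 at 15.23 to 15.38 and Csf1r at 14.95 to 15.15 over both times. The level summed over the 11 macrophage markers in the table, in linear units, was 336500 to 356600 at 0 h and 399100 to 405400 at 2 h. That of 10 neutrophil markers was 298.5 to 349.7 and then 346.6 to 359.0, and that of 12 T, B and NK cell markers 305.4 to 390.7 and 317.2 to 336.0. The 7 dendritic cell markers summed to 40.57 to 50.96 at 0 h and 102.6 to 105.8 at 2 h, and the 10 mast, erythroid and stromal markers to 55.94 to 61.06 and 96.42 to 106.0. Their part in the results was not tested. In bulk samples fewer cells of a type and less RNA per cell cannot be told apart.

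Most of the tested genes differed between 0 h and 2 h of LPS. Untreated cells were sampled only as 0 h, so effects of LPS and of time or handling cannot be told apart. In the limma fit, with Benjamini-Hochberg adjustment over all tested genes, 8636 genes (62.1% of those tested) passed an adjusted p of 0.05. Of these, 4530 (32.6%) were higher and 4106 (29.5%) were lower at 2 h. Changes of at least 2-fold were called for 810 genes that rose (5.83%) and 380 that fell (2.73%). Among these the largest rise was 116-fold (Il12b) and the largest fall 7.78-fold (Cnr2). The median change over all tested genes was 0.005 on the log2 scale. The division of called genes moved with the scaling, from 52.5% higher with the deposited values to 39.2% after quantile normalisation and 60.7% after centring each library on its median.

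**Figure D1:**
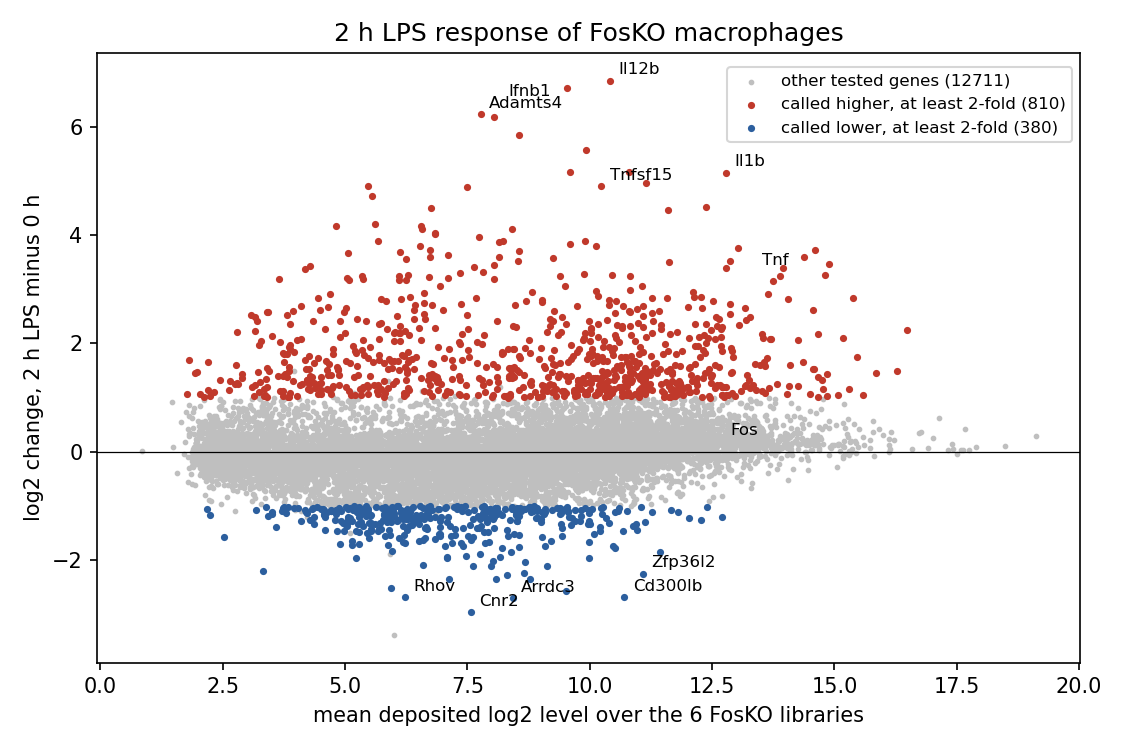
Change between 0 h and 2 h of LPS (y axis, log2) against the mean level over the 6 FosKO libraries (x axis, deposited log2 values), 1 point per tested gene. The 810 genes called higher by at least 2-fold reach a change of 6.85 (Il12b), while the 380 called lower end at -2.96 (Cnr2).

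The sequences of the 250 bases before the start site are given for the 3 genes with the largest rises and the 3 with the largest falls that had an entry among the RefSeq promoters (GRCm38.p6), because these genes mark both ends of the response. The RefSeq start used here lies 205 bases from the GENCODE start for Cnr2, 20 for Ifnb1 and 46 for Rhov, whose window therefore overlaps the gene interval given for it. They run 5′ to 3′ on the strand of the gene, and capitals mark matches to the motifs described after them.

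Il12b (chr11:44399813-44400062, plus strand): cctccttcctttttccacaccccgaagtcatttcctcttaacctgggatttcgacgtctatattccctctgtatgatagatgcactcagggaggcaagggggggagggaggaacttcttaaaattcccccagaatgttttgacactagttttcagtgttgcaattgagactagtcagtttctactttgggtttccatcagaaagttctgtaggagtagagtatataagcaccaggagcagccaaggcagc

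Ifnb1 (chr4:88522795-88523044, minus strand): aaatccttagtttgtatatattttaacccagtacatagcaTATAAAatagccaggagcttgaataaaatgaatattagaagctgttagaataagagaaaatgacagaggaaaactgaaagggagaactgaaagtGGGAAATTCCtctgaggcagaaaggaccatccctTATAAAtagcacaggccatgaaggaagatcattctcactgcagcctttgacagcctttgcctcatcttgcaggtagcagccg

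Il6 (chr5:30012864-30013113, plus strand): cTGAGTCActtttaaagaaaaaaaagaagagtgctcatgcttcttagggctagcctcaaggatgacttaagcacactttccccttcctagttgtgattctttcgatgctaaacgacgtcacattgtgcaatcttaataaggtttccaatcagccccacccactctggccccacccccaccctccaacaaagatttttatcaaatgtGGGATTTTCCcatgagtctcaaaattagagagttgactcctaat

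Cnr2 (chr4:135894939-135895188, plus strand): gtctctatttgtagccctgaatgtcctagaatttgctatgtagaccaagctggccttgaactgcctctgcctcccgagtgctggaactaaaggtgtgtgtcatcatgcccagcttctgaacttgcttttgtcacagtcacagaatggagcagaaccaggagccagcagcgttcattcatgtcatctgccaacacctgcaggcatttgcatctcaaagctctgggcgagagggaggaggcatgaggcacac

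Arrdc3 (chr13:80883134-80883383, plus strand): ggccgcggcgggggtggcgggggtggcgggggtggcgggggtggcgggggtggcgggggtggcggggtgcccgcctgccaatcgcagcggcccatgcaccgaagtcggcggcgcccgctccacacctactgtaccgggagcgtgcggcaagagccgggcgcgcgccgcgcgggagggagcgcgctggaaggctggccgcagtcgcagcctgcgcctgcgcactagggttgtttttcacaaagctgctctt

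Rhov (chr2:119271227-119271476, minus strand): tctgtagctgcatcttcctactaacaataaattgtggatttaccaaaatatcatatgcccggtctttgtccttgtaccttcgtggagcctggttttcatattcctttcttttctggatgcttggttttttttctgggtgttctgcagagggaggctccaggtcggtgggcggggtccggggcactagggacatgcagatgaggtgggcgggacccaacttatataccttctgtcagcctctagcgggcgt

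The motifs searched on both strands were the AP-1 site TGANTCA, the cyclic AMP response element TGACGTCA, the TATA box TATAAA, and the interferon response element, the κB site and the CArG box by their usual consensus. Among promoters of 9552 tested protein-coding genes (80.1% of 11932) these matched 4.3%, 2.8%, 6.3%, 2.9%, 4.3% and 1.0%, respectively. In the Ifnb1 promoter a κB match lay 116 to 107 bases before the start, and TATAAA matched at 210 to 205 and at 82 to 77 bases. The Il6 promoter held an AP-1 match, TGAGTCA, 249 to 243 bases before the start and a κB match, GGGATTTTCC, 44 to 35 bases before it. No match lay in the windows of Il12b, Cnr2, Arrdc3 and Rhov. The Arrdc3 window had 76.0% G+C and 33 CpG dinucleotides, against 39.6% and 1 in that of Ifnb1. No comparison of motif shares between rising and falling genes is made here, because only 79.7% of either set had a promoter entry, under the coverage required for one.

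Of the 12 largest rises 11 are described, and these belonged to cytokines and interferons, a protease, a cyclooxygenase and a vasoactive peptide. Il12b (chr11:44400063-44414033), which encodes the subunit shared by interleukins 12 and 23, read 6.80, 6.88 and 7.27 at 0 h and 13.77, 13.77 and 13.96 at 2 h. Every 2 h library lay far above every 0 h library, and the rise of 6.85 ± 0.11 (SE) amounts to 116-fold (limma, adjusted p = 3.4e-21). Ifnb1 (chr4:88522025-88522774), the gene of IFN-β, read 6.10, 6.15 and 6.26 at 0 h and 12.96, 12.78 and 12.93 at 2 h. It rose by 6.72 ± 0.12 (adjusted p = 3.6e-20). Adamts4 (chr1:171250421-171260637), which encodes an aggrecan-cleaving protease, went from 4.71, 4.57 and 4.69 to 10.77, 11.00 and 10.90, a rise of 6.23 ± 0.12 (adjusted p = 4.8e-20). Il6 went from 4.86, 4.84 and 5.12 to 11.10, 10.96 and 11.33, a rise of 6.19. The other genes of this set were Edn1 (endothelin 1 precursor, 5.85), Il27 (5.56), Il1a (5.16), Il1b (5.15), Ptgs2 (inducible cyclooxygenase, 4.97), Ifna5 (4.91) and Tnfsf15 (the TNF family ligand TL1A, 4.90). In none of the 11 did the groups overlap, which the choice of these genes required.

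**Figure D2:**
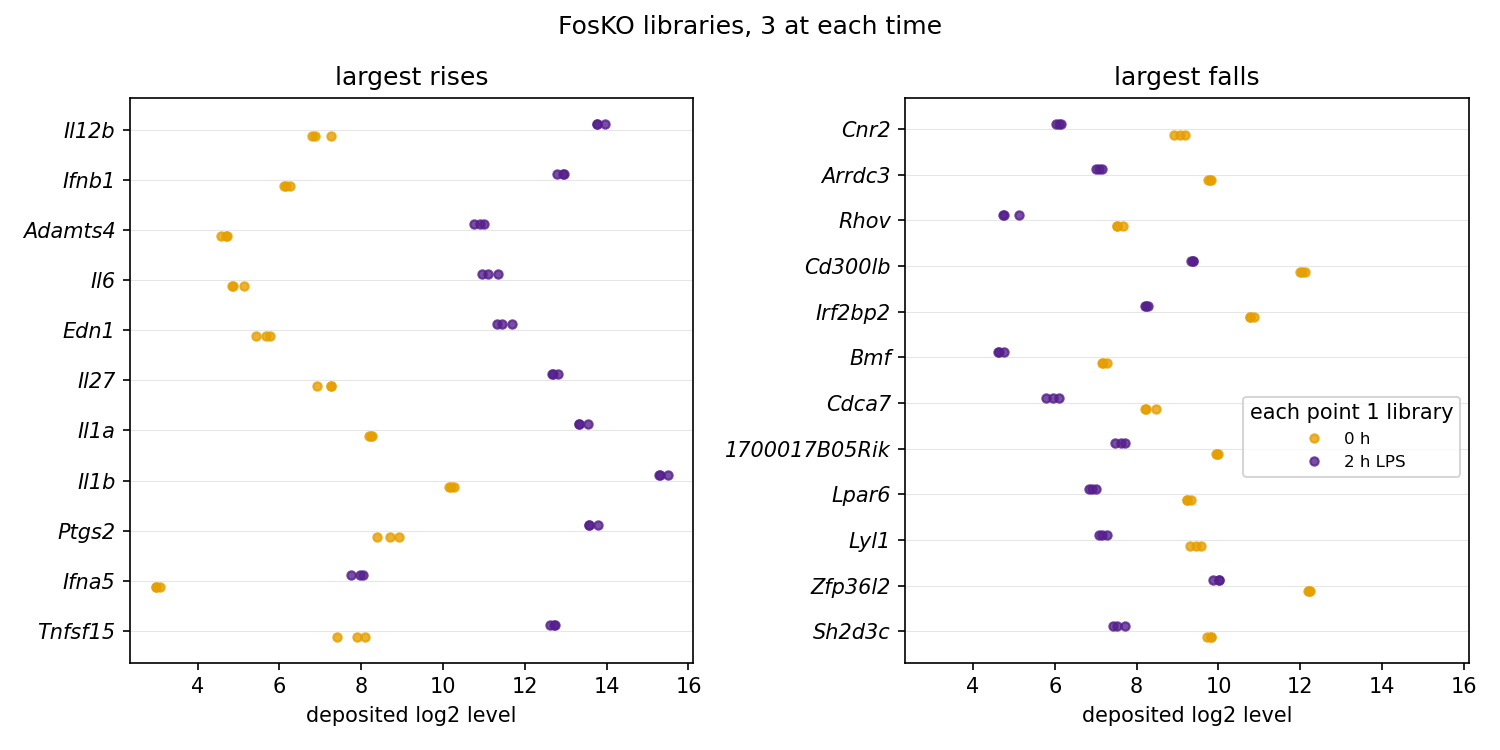
Deposited log2 level (x axis) of 11 of the 12 genes with the largest rises (left) and the 12 with the largest falls (right) in each FosKO library, orange at 0 h and purple after 2 h of LPS. The 3 libraries of a time lie close together beside the distance between times, as for Il12b (6.80 to 7.27 against 13.77 to 13.96) and Cnr2 (8.91 to 9.18 against 6.03 to 6.16).

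The 12 largest falls were a mixed group of receptors, regulators and adaptors. Cnr2 (chr4:135895394-135920207), the cannabinoid receptor of immune cells, read 9.18, 9.07 and 8.91 at 0 h and 6.09, 6.03 and 6.16 at 2 h, and fell by 2.96 ± 0.08 (SE; limma, adjusted p = 5.6e-18). The α-arrestin gene Arrdc3 (chr13:80883384-80896042) read 9.80, 9.74 and 9.82 and then 7.00, 7.15 and 7.08, and fell by 2.71 ± 0.06 (adjusted p = 1.4e-19). Rhov (chr2:119269201-119271272), which encodes an atypical small GTPase, read 7.68, 7.51 and 7.52 and then 4.74, 5.13 and 4.77, and fell by 2.69 ± 0.09. For all 3 genes the highest 2 h library was more than 2 log2 units below the lowest 0 h library. The others fell by 2.25 to 2.69: Cd300lb (a myeloid activating receptor), Irf2bp2 (a transcriptional corepressor), Bmf (a pro-apoptotic BH3-only protein), Cdca7, 1700017B05Rik, Lpar6 (a lysophosphatidic acid receptor), Lyl1 (a haematopoietic basic helix-loop-helix factor), Zfp36l2 (an mRNA decay protein) and Sh2d3c (an adaptor).

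Inflammatory cytokine genes rose together. Of 24 listed genes 23 were tested, and all 23 were called higher, 20 of them by at least 2-fold. Their median change was 2.55, beside 0.005 over all tested genes, and their lowest was 0.57. The shares to set beside the counts of this and every later list are 32.6% higher and 29.5% lower over all tested genes. By at least 2-fold they are 5.83% and 2.73%. After quantile normalisation 3304 of all 13901 genes were higher and 5132 lower. Tnf read 12.48, 12.57 and 12.66 at 0 h and 16.17, 16.08 and 16.27 at 2 h, a rise of 3.60. The anti-inflammatory cytokine gene Il10 was among the smallest of these rises, from 5.60, 5.84 and 5.73 to 6.38, 6.30 and 6.79, or 0.76 ± 0.13 (SE; limma, adjusted p = 4.8e-05). Among 18 tested chemokine genes 17 were higher, 16 by at least 2-fold, with a median of 2.92. Cxcl9 (3.89), Cxcl1 (3.80) and Cxcl10 (3.72) led them. Ccl6, the remaining gene, read 13.27 to 13.49 at 0 h and 13.30 to 13.43 at 2 h (change -0.01, adjusted p = 0.85), and was 1 of several genes named after their values were seen. After quantile normalisation its change was -0.412 and passed the test.

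**Figure D3:**
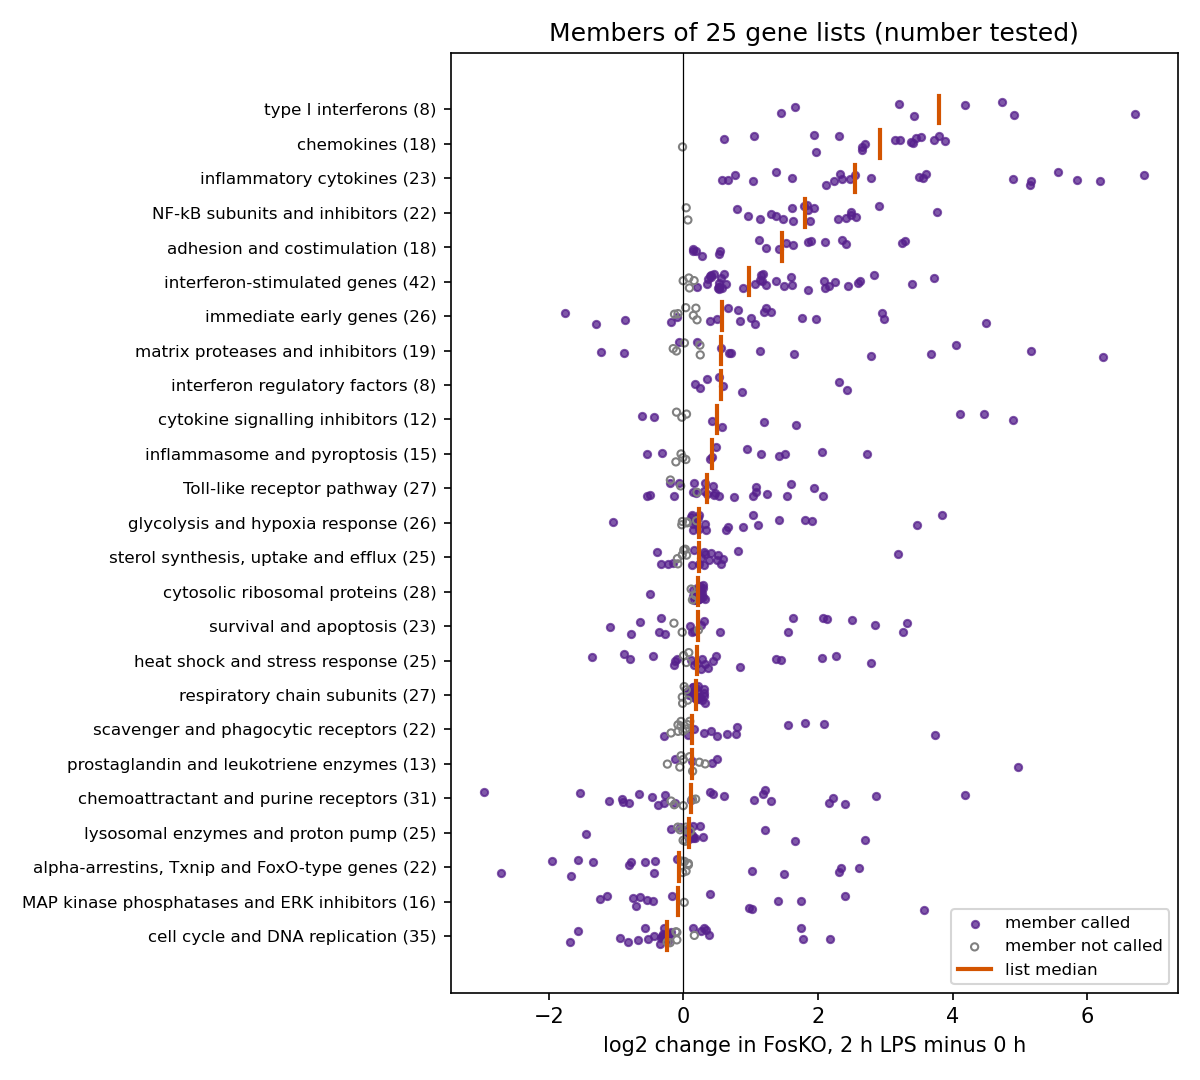
Change between 0 h and 2 h of LPS in FosKO macrophages (x axis, log2) for the tested members of 25 gene lists (y axis, number tested in brackets, vertical position within a list is arbitrary). Filled points passed the test, open points did not, and the bar is the list median, from 3.80 for type I interferons to -0.24 for cell cycle and DNA replication.

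Of 12 listed genes of type I interferons 8 were tested, and Ifna12, Ifna13, Ifne and Ifnk were not. All 8 tested genes were higher at 2 h by at least 2-fold, with a median of 3.80. The filter can admit a gene through FosKO libraries after LPS alone, which favours rises in such a count. Ifna5 read 2.99, 2.98 and 3.08 at 0 h and 7.97, 7.75 and 8.05 at 2 h, and Ifna2 went from 3.17 to 3.19 up to 7.80 to 8.05. The rises were 4.18 for Ifna4, 3.43 for Ifna1, 3.20 for Ifna6, 1.66 for Ifnab and 1.45 for Ifna14. The Ifna genes are near-identical copies and lie near the lower end of the tested values at 0 h. The share of reads between copies and the size of each rise are therefore uncertain. The 8 interferon regulatory factor genes were all higher (6 of 8 after quantile normalisation), led by Irf1 (2.43), Irf8 (2.31) and Irf5 (0.87). Irf8, which encodes a lineage factor of myeloid cells, read 11.56, 11.57 and 11.55 at 0 h and 13.85, 13.85 and 13.90 at 2 h.

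Interferon-stimulated genes rose from levels that differed between the libraries at 0 h. Of 42 tested genes 38 were higher, 21 by at least 2-fold, and none was lower. The median was 0.98. Cxcl10 (from 12.17, 12.84 and 13.20 to 16.46, 16.41 and 16.52), Gbp5 (a guanylate-binding protein, 3.40) and Oasl1 (an oligoadenylate synthetase-like protein, 2.84) led the list, and Ifit1 (2.62), Mx2 (2.59, annotated as a polymorphic pseudogene), Rsad2 (2.25) and Isg15 (1.37) also rose. Among the 4 genes that did not pass the test were Stat2 (under 0.01 in size), Ifi44 (0.08) and Oas3 (0.16). Quantile normalisation moved these to -0.426, -0.087 and -0.313. The mean level over the 42 genes was 11.98, 12.32 and 12.53 in the 3 libraries at 0 h, and 13.43, 13.43 and 13.53 at 2 h. All 42 genes were lowest at 0 h in replicate 1 and 41 of them (97.6%) highest in replicate 3, beside 36.1% and 38.6% of all tested genes. Without replicate 1 at 0 h the count was 36 higher and the median 0.80, and without replicate 3 it was 39 and 1.13. In LysM libraries the mean level of these genes was 11.12 to 11.28 at 0 h and 12.47 to 12.68 at 2 h, below every FosKO library of the same time. After quantile normalisation 27 of the 42 genes were higher and 3 lower.

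Genes of NF-κB subunits and their inhibitors rose as a group, with 20 of 22 higher, 18 by at least 2-fold, and a median of 1.81. The subunit genes Rel (2.49), Nfkb1 (1.95), Nfkb2 (1.89), Relb (1.38) and Rela (1.13) were all higher. Among the inhibitors Nfkbiz rose by 3.76, Tnfaip3 (A20) by 2.91, Zc3h12a (the RNase Regnase-1) by 2.56 and Nfkbia by 2.48. Tnip2 (0.04) and Cyld (0.07) did not pass the test. Of 27 genes of the Toll-like receptor pathway 19 were higher, led by Tlr2 (2.08), Map3k8 (the kinase TPL-2, 1.94) and Irak2 (1.60), and 5 were lower, led by Tlr13 (-0.54). Tlr4 read 11.57, 11.63 and 11.67 at 0 h and 11.23, 11.11 and 11.05 at 2 h and fell by 0.49, while its partner Ly96 (MD-2) rose by 0.53 and Myd88 by 1.07. Among 12 inhibitors of cytokine signalling 7 rose, with Cish (4.90), Socs3 (4.47) and Socs1 (4.11) far above the median of 0.50, and 2 fell, led by Sh2b3 (-0.62).

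Immediate early genes had mixed states at 2 h. Of 26 tested genes 15 were higher and 5 lower than at 0 h, with a median of 0.58. Nr4a3 (4.50), Csrnp1 (2.99) and Maff (2.95) were the largest rises and Klf10 (-1.76) and Myc (-1.29) the largest falls. Egr1 showed a peak before 2 h, since its mean went from 8.64 to 14.22 in 0.5 h, stood at 12.72 after 1 h and ended at 10.60, still 1.97 above the start. Jun had means of 11.62, 12.80, 11.96 and 10.76 at the same times and ended 0.86 below its start. Nr4a1 reached 8.22 at 1 h and was at 5.48 at 2 h, 0.13 under its starting mean (adjusted p = 0.35). Genes of MAP kinase phosphatases and ERK inhibitors were also divided, with 7 of 16 higher, 8 lower and a median of -0.08. Dusp2 (3.57), Dusp14 (2.41) and Dusp16 (1.75), of which DUSP16 acts mainly on JNK and p38, led the rises. Dusp6 (-1.24) and Dusp7 (-1.14), both ERK phosphatases, led the falls, and Spry2, an inhibitor of receptor signalling to ERK, fell by 0.65.

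**Figure D4:**
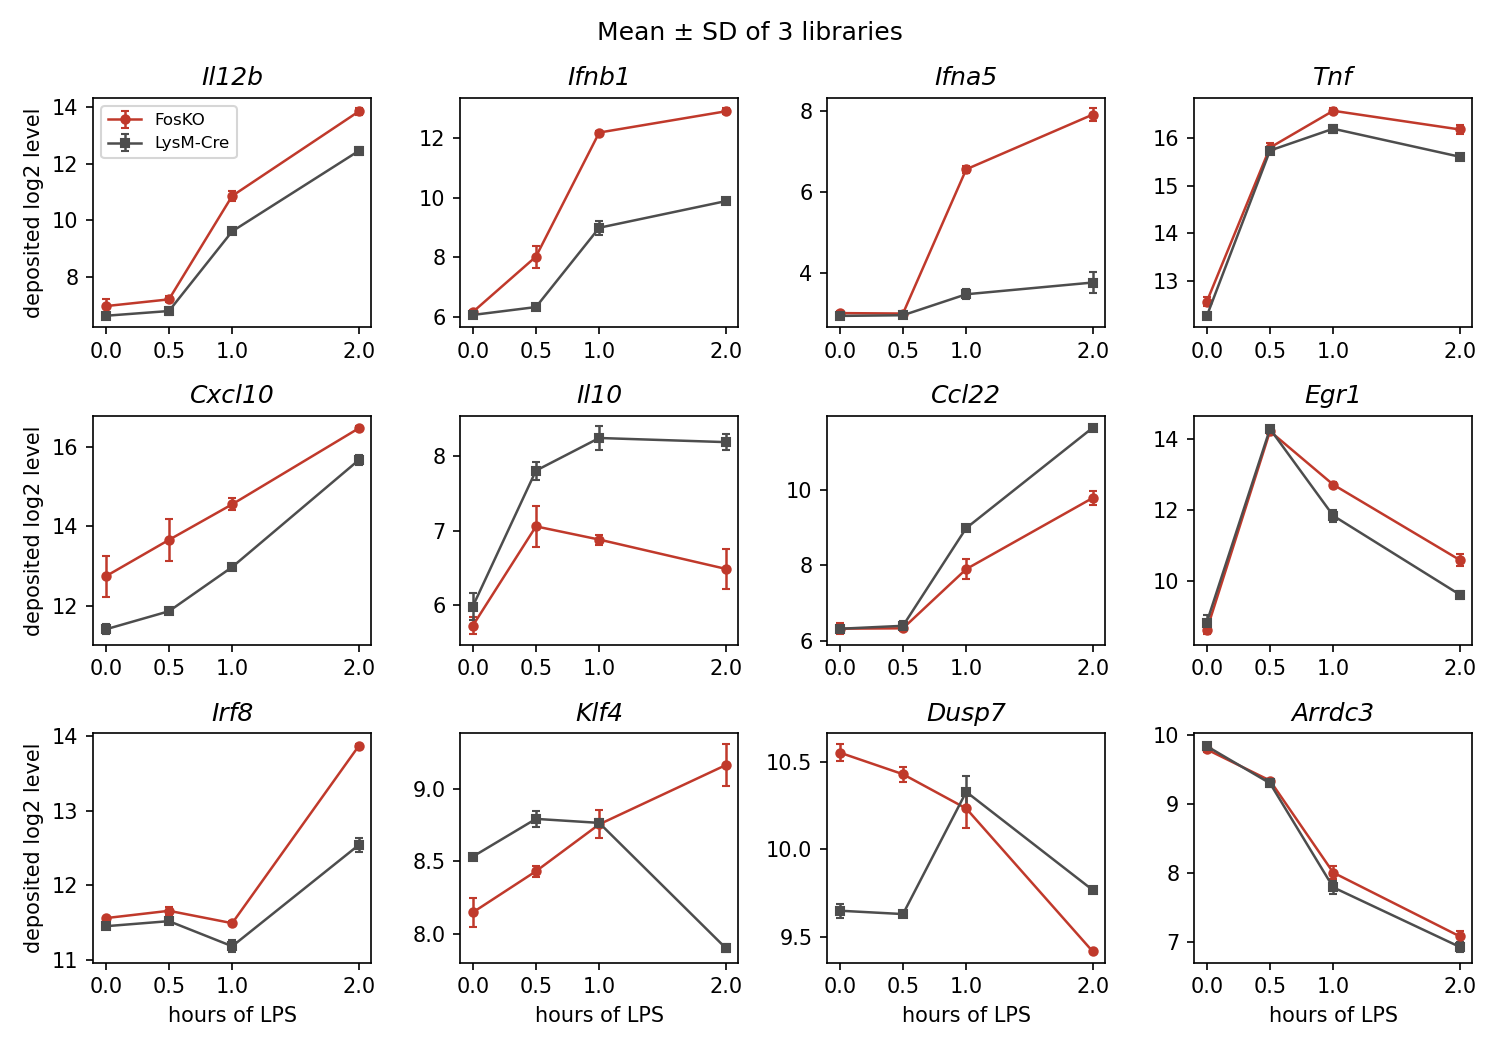
Deposited log2 level (y axis) of 12 genes at 0, 0.5, 1 and 2 h of LPS (x axis), mean ± SD of 3 libraries, FosKO in red and LysM-Cre in dark grey. Egr1 reached 14.22 at 0.5 h and was back at 10.60 by 2 h in FosKO cells, whereas Irf8 was still at 11.49 at 1 h and reached 13.87 at 2 h.

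All 18 tested genes of adhesion and costimulation were higher, 12 by at least 2-fold, led by Tnfsf4 (OX40 ligand, 3.30), Icam1 (3.25) and Vcam1 (2.41). After quantile normalisation 14 of the 18 were higher and 3 lower. Cd80 rose by 1.85, Cd274 (PD-L1) by 1.63 and Cd86 by 0.54. Of 19 matrix proteases and inhibitors 11 were higher and 3 lower. Beside Adamts4, Plat (tissue plasminogen activator) rose by 4.04 and Mmp13 (collagenase 3) by 2.78, while Plau (urokinase) went from 12.67, 12.68 and 12.58 to 11.42, 11.41 and 11.43. Ptgs2 was the only 2-fold change among 13 prostaglandin and leukotriene enzymes, of which 4 were higher and 1, Hpgds, lower (-0.12). The share that was higher is close to the 32.6% of all tested genes. Ptges, the inducible prostaglandin E synthase, read 6.69, 6.72 and 6.91 at 0 h and 7.33, 7.11 and 7.14 at 2 h, a rise of 0.42 ± 0.09 (SE; limma, adjusted p = 0.0004).

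Among 31 chemoattractant, purine and related receptors 13 were higher, led by the adenosine receptor gene Adora2a (4.18) and the atypical chemerin receptor gene Ccrl2 (2.86), and 12 were lower, beside 32.6% higher and 29.5% lower over all tested genes. Of these falls 3 were of at least 2-fold, Cnr2 and Cxcr4 (-1.54) among them, and the smaller ones included S1pr1 (-0.92) and Ccr2 (-0.67). Cxcr4 read 9.23, 9.27 and 9.50 at 0 h and 7.78, 7.69 and 7.92 at 2 h. Of 22 scavenger and phagocytic receptors 12 were higher and Fcgr1 was lower (-0.29), which quantile normalisation turned to 7 higher and 10 lower. Olr1 (the oxidised LDL receptor LOX-1, 3.73), Clec4e (Mincle, 2.08) and Tyro3 (1.81) led the rises. Tyro3 rose from values of 2.74 to 2.92, near the lower end of the tested values. Among 15 inflammasome and pyroptosis genes 9 were higher, led by Nlrp3 (2.72), Nod2 (2.07) and Mefv (pyrin, 1.51), and 2 were lower, led by Nlrp1b (-0.55). After quantile normalisation 7 were higher and 5 lower.

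Among 23 genes of survival and apoptosis 14 were higher and 6 lower, or 9 and 7 after quantile normalisation. The anti-apoptotic Bcl2a1a (3.32), Bcl2a1d (3.26) and Bcl2a1b (2.85), near-identical copies whose separate values are uncertain, led the rises. Casp9, the initiator caspase of the mitochondrial pathway, fell by 1.1 and the pro-apoptotic Bbc3 (PUMA) by 0.78, while the anti-apoptotic Mcl1 fell by 0.34. Cell cycle and DNA replication was the list with the lowest median with the deposited values (-0.24): 21 of 35 genes were lower and 8 higher. After quantile normalisation 23 were lower and 6 higher, and its median of -0.30 was no longer the lowest, with lysosomal genes at -0.33. E2f2 (-1.69), Cdc6 (-1.56) and Ccne2 (-0.95), genes of entry into S phase, were among the falls. The 3 largest changes of the list were nevertheless rises, in Cdkn1a (the cyclin-dependent kinase inhibitor p21, 2.18), Ccnd2 (1.77) and Mki67 (1.75). Among 22 α-arrestin and FoxO-type genes 11 were lower, led by Arrdc3, Foxo3 (-1.96) and Sesn1 (-1.67), and 5 were higher, led by Ccng2 (2.60), Cited2 (2.34) and Klf7 (2.32).

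Of 26 glycolysis and hypoxia genes 20 were higher, 7 by at least 2-fold, led by Nos2 (inducible nitric oxide synthase, 3.84), Irg1 (itaconate synthesis, 3.47) and Sod2 (1.92), while Vegfa was lower (-1.04). The hexokinase gene Hk2 rose by 1.1 and the glucose transporter gene Slc2a1 by 1.03. After quantile normalisation 12 of the 26 were higher and 10 lower. Sterol genes were higher in 15 of 25 cases, led by Ch25h (the 25-hydroxycholesterol synthase, 3.19), with Scap at 0.58, and lower in 4, led by the efflux transporter gene Abcg1 (-0.40), while quantile normalisation gave 9 higher and 11 lower. Of 25 lysosomal genes 14 were higher, led by Tfec (2.70) and Ctsc (1.65), and 3 lower, led by Tfeb, a regulator of lysosomal genes (-1.45), although quantile normalisation turned this to 3 higher and 18 lower. Respiratory chain subunits (22 of 27 higher, median 0.18) and cytosolic ribosomal proteins (24 of 28 higher, median 0.22) had changes of at most 0.32 upward, which quantile normalisation turned to 3 higher and 9 lower and to 0 higher and 17 lower. The largest change of the ribosomal list was the called fall of Rpl5 (-0.49). This call was lost in several settings, as without replicate 3 at 0 h (-0.239). Among 25 heat shock and stress genes 15 were higher and 7 lower. Hspa1b (2.79) and Hspa1a (2.06), near-identical copies of the inducible chaperone gene, and Slc7a11 (the cystine transporter, 2.27) led the rises, and Ddit4 (-1.36) and Ddit3 (-0.89) fell. After quantile normalisation 9 of the 25 were higher and 11 lower.

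Summed levels of markers of other cell types were far below the macrophage sum at both times. The dendritic sum and the mast, erythroid and stromal sum were higher at 2 h than at 0 h. Among the macrophage markers Cd14 rose by 1.53. Of the 11 macrophage markers tested, 6 were higher and 2 lower with the deposited values, and 2 higher and 9 lower after quantile normalisation. Of the 5 neutrophil markers that passed the filter, 3 were higher (S100a9, Ngp and S100a8, by 0.38 to 0.64), all at levels under 5, and the calls of Ngp and S100a8 were lost without replicate 3 at 0 h or replicate 1 at 2 h (for S100a8 also replicate 3 at 2 h). Neither of the 2 tested T, B and NK cell markers was called. Of 4 tested dendritic cell markers 3 were higher (Xcr1 by 1.56, Zbtb46 by 1.39 and Ccr9 by 0.98), from levels under 4.3 at 0 h. Of 6 tested mast, erythroid and stromal markers only Pdgfrb was called, from 3.43 to 3.51 up to 5.62 to 5.77.

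The time course was followed for the genes called at 2 h. Of the 810 genes that rose at least 2-fold by 2 h, 744 (91.9%) had their highest FosKO group mean at 2 h, while 62 peaked at 1 h and 4 earlier. The median gene had made 10.6% of its 2 h rise at 0.5 h and 37.9% at 1 h. Among the 380 genes that fell, 360 (94.7%) were lowest at 2 h, and the median gene had made 6.0% of its fall at 0.5 h and 34.5% at 1 h. A rise of at least 1 log2 unit was already present in 60 of the 810 at 0.5 h and in 264 at 1 h. A fall of that size was present in 3 of the 380 at 0.5 h and in 53 at 1 h. The genes were chosen for a large change at 2 h, which leaves out those that peaked earlier and came back and favours an extreme at 2 h. These shares, which also use the same 0 h libraries, are therefore descriptions without a test. Il1b (10.20, 12.38, 14.78 and 15.35 as means at 0, 0.5, 1 and 2 h) and Nfkbia (12.04, 14.51, 14.71 and 14.52) were early. Socs1 (6.36, 7.00, 6.97 and 10.47) and Nos2 (7.67, 8.03, 8.07 and 11.51) rose mainly between 1 and 2 h.

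The rising and falling genes differed little in length. Protein-coding genes made up 709 of the 810 rises and 350 of the 380 falls, and 11932 of all 13901 tested genes. Their median exonic length was 4393 bases for the rises, 4839 for the falls and 4477.5 for all tested protein-coding genes, and their median largest exon number was 8, 6 and 9. The median level at 0 h was 9.0 for the rises, 7.85 for the falls and 8.92 for all. Genes named Zfp with a number, most of which encode zinc finger proteins, made up 36 (10.3%) of the 350 protein-coding falls, 8 (1.1%) of the 709 rises and 313 (2.6%) of all. Of these 313 genes 211 were lower and 38 higher at 2 h, with a median change of -0.44. This group was chosen after its values were seen. Among noncoding RNAs, Mir155hg, the host transcript of the microRNA miR-155, rose from 5.57, 5.78 and 5.90 to 9.65, 9.61 and 9.89, a change of 3.97. The table does not measure the microRNA itself.

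Most of the response was shared with LysM control macrophages. In LysM libraries 755 genes rose (5.43% of those tested) and 365 fell (2.63%) by at least 2-fold. Of the 810 FosKO rises 645 were among them, 79.6% of the FosKO list and 85.4% of the LysM list. Of the 380 falls 237 were shared, or 62.4% and 64.9%. Without the 2-fold limit, 783 of the 810 rises and 371 of the 380 falls were called in the same direction in LysM cells. No share of all tested genes is given here for LysM calls without that limit, so these counts have no baseline. The test of the difference between the responses (limma, same fit) was passed in the positive direction by 1010 genes (7.27%) and in the negative by 1071 (7.7%). Among the 810 FosKO rises 203 were larger in FosKO, 103 were smaller and 504 did not pass that test. Among the 380 falls 88 were deeper in FosKO and 27 shallower. These shares are taken among genes chosen for a large change in FosKO, which by itself favours the first of each pair.

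**Figure D5:**
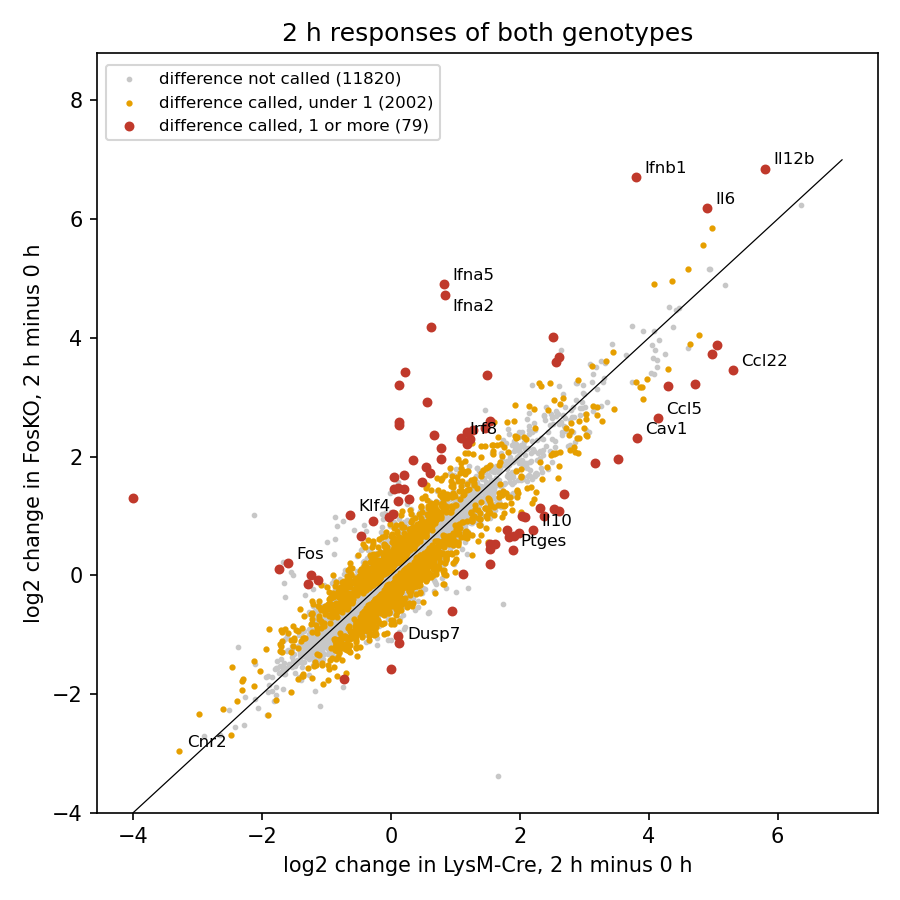
Change between 0 h and 2 h of LPS in FosKO (y axis, log2) against that in LysM-Cre macrophages (x axis, log2), 1 point per tested gene, with the line of equality. Red points are the 79 genes whose responses differed by at least 1 log2 unit and passed the test of the difference, among them Ifnb1 (6.72 against 3.81) above the line and Ccl22 (3.45 against 5.31) below it.

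Among the genes compared by name, the type I interferon genes Ifna5, Ifna2, Ifna4, Ifna1, Ifna6 and Ifnb1 had the largest differences. Those of Ifnab (1.62) and Ifna14 (1.41) were smaller in size than that of Ccl22 (-1.86). For the Ifna copies, which lie near the lower end of the tested values at 0 h, these sizes are uncertain. Ifnb1 rose 2.91 ± 0.18 (SE) log2 units more in FosKO than in LysM cells (limma, adjusted p = 7.4e-10). The 7 tested Ifna and Ifnab genes changed by 0.04 to 0.83 in LysM cells, and all 8 differences of the list passed the test. The filter can admit such genes through FosKO libraries after LPS alone, which favours positive differences in this count. The interferon-stimulated genes did not follow as a group in size of change. Their median change was 0.98 in FosKO and 1.04 in LysM cells, and only Mx2 passed the test of the difference, with the smaller rise in FosKO (2.59 against 3.27). The level of these genes was higher in FosKO at both times. Their mean per library was 11.98 to 12.53 in FosKO and 11.12 to 11.28 in LysM at 0 h. At 2 h it was 13.43 to 13.53 and 12.47 to 12.68. By a rule set after the values were seen (protein-coding, mean linear level of at least 50, called in FosKO, difference called and at least 1 log2 unit), 36 genes were singled out, 19 with a positive and 17 with a negative difference. The positive ones included Il6 (6.19 against 4.90), Il12b (6.85 against 5.80), Plagl1 (4.02 against 2.51), Irf8 (2.31 against 1.09) and Egr1 (1.97 against 0.78). The negative ones included the chemokine genes Ccl22 (3.45 against 5.31), Cxcl3 (3.22 against 4.71) and Ccl5 (2.65 against 4.14), Cav1 (caveolin 1, 2.32 against 3.82), Ptges (0.42 against 1.89) and Il10 (0.76 against 2.21). Of 18 chemokine genes 7 had a called negative difference and 1 a positive one, and of 23 cytokine genes 3 and 9.

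For 110 of the 13901 tested genes the response was called in opposite directions in the 2 genotypes with a called difference, and 2 of them, Klf4 and Dusp7, changed by at least 2-fold in FosKO. Klf4, a zinc finger factor of monocyte differentiation, read 8.24, 8.04 and 8.16 at 0 h and 9.0, 9.20 and 9.29 at 2 h in FosKO cells, but 8.53, 8.52 and 8.55 and then 7.90, 7.93 and 7.87 in LysM cells. The difference of 1.65 ± 0.09 (SE) had an adjusted p of 8.9e-11 by limma. Dusp7 read 10.61, 10.51 and 10.54 and then 9.41, 9.42 and 9.42 in FosKO cells, against 9.67, 9.67 and 9.60 and then 9.78, 9.76 and 9.76 in LysM cells. Its FosKO libraries lay above every LysM library at 0 h and below every LysM library at 2 h. Several falls were shallower in FosKO by the test of the difference. Dusp6 (-1.24 against -1.94), Cxcr4 (-1.54 against -2.46) and Spry2 (-0.65 against -1.22) were among them, as were Jun (-0.86 against -1.53) and Tlr4 (-0.49 against -0.92).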

How the data were processed

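Libraries were made with the TruSeq kit and sequenced single-end, and the study's methods call the reads strand-specific. The authors mapped and counted them with STAR 2.5.2a and RSEM 1.2.31 on GRCm38 and, per the labels, used DESeq2 1.16.1. The deposited values are normalised expression on a log2 scale, 1 column per library. The transform is not given in the sources used here, and since no counts were used the depth is unknown. A value of 1 more is read as a 2-fold change, although changes of genes near the lower end of the scale may be understated.

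Genes with a linear value of at least 5 in at least 3 of the 24 libraries were tested with limma 3.58.1 (R 4.3.3, empirical Bayes with trend) on the log2 values as deposited, with 8 group means fitted to all 24 libraries. P-values were adjusted by Benjamini-Hochberg over the 13901 genes, and calls were made at 0.05. With 3 libraries a group, an exact permutation test of a single gene cannot go below 0.1. The contrasts were FosKO at 2 h minus FosKO at 0 h, and that minus the same contrast in LysM. The fit was tested on simulated data. Genes were named by rule: Fos and Lyz2, the 12 largest rises and falls (protein-coding and called, no overlap of libraries between times, mean over the 6 libraries at or above 50 in linear units), and, for each of 30 lists, the 3 called members of largest change and the largest in the rarer direction. Some genes that the rule names are not reported here. Other named genes were chosen after their values were seen. The members and lists were chosen with earlier results of these data known. Symbols are those of the table. Positions, exonic lengths and biotypes come from GENCODE M21 (GRCm38), which held 99.7% of the identifiers, and promoters from RefSeq (GRCm38.p6). Alternatives were another filter, a pseudocount, 2 other scalings, fewer libraries in the fit, other variance priors, a replicate block and leaving out each library.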

Additional observations from a re-analysis of the deposited data

Results flagged for a closer look

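The results listed here drew attention because the 2 h response of the gene in FosKO macrophages differed from that in LysM macrophages by the test of the difference itself (limma, adjusted p under 0.05 over all tested genes, 3 libraries in each of the 4 groups). Values are log2 changes in FosKO minus those in LysM, and no explanation was tested. Fos differed by 1.80, with a fall in LysM libraries and a change in FosKO libraries that missed the threshold (adjusted p = 0.054) and passed it under 7 alternatives. Type I interferon genes rose more in FosKO: Ifna5 (4.08), Ifna2 (3.90), Ifna4 (3.55), Ifna1 (3.21), Ifna6 (3.07), Ifnb1 (2.91), Ifnab (1.62) and Ifna14 (1.41).

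Other genes that rose in FosKO and had a positive difference were Klf4 (1.65), Plagl1 (1.51), Il6 (1.29), Phlda1 (1.28), Irf8 (1.22), Egr1 (1.18), Amotl2 (1.17), Bambi (1.12), Plod2 (1.08), Serpinb2 (1.08), Otud1 (1.08), Ccng2 (1.07), Il12b (1.05), Gem (1.03), Rhoh (1.01), Edn1 (0.87), Tnfsf15 (0.81), Il27 (0.72), Ptgs2 (0.61) and Il1a (0.55). Of these, Klf4 fell in LysM cells and Rhoh was not called in them. Genes that fell in FosKO, but less than in LysM, were Cxcr4 (0.92), Dusp6 (0.70), Jun (0.66), Lpar6 (0.64), Spry2 (0.58), Tlr4 (0.43), Zfp36l2 (0.36) and Cnr2 (0.33). These are differences of change and not of level at 2 h. Cnr2 had means of 9.05 in FosKO and 9.39 in LysM at 0 h, and of 6.09 in both at 2 h. Zfp36l2 had means of 12.21 in FosKO and 12.30 in LysM at 0 h, and of 9.96 and 9.69 at 2 h. The calls of Cnr2, Tnfsf15 and Ptgs2 were lost when most or several single libraries were left out.

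Genes that rose less in FosKO than in LysM were Col15a1 (-1.02), Lox (-1.10), Ptger2 (-1.10), Shisa3 (-1.13), Mmp14 (-1.17), Il4i1 (-1.18), Olr1 (-1.25), Oaf (-1.28), Rhou (-1.37), Il10 (-1.44), Ptges (-1.47), Ccl5 (-1.49), Cxcl3 (-1.49), Cav1 (-1.50), Ccl17 (-1.56) and Ccl22 (-1.86). Genes that fell in FosKO with a negative difference were Cd300lb (-0.20), 1700017B05Rik (-0.44), Klhl42 (-1.02) and Dusp7 (-1.25). Dusp7 rose in LysM cells, and the others of this group fell there too.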

How the results depend on the processing

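The counts of called genes stayed within 1.5 times their values under every alternative run, for the FosKO response and for its difference from LysM. Leaving out 1 FosKO library gave 8121 to 8392 called genes, 4274 to 4409 higher and 3835 to 3983 lower, with 768 to 851 and 383 to 409 past 2-fold. The difference was called for 1687 to 2105 genes (812 to 1107 positive, 871 to 1078 negative) when 1 library of the 4 groups was left out. No filter gave 8903 called genes, a minimum of 50 gave 7699, quantile normalisation 8436 (3304 higher, 5132 lower) and median centring 8650 (5249 higher, 3401 lower).

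The replicate numbers were not taken as pairs, since no correlation between the deviations of same-numbered libraries from their group means exceeded 0.1. These were 0.027, 0.089 and 0.020 in FosKO and 0.044, 0.057 and 0.017 in LysM. All were positive, and each 0 h library correlated best with its own number except FosKO replicate 3 (0.031 with replicate 1 at 2 h), which is a hint from the data and not from the design. A fit with a replicate block called 8895 genes for the response and 2540 for the difference.

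Over the genes named, 3283 of the recomputed FosKO changes kept direction and call, 20 lost the call, 17 gained it and 21 turned direction. For the difference 1277 kept both, 31 lost the call and none turned. Quantile normalisation turned the change of Fos to -0.152, Lyz2 to -0.415, Atp5b to -0.131, Rps14 to -0.063, Ifi44 to -0.087, Cyld to -0.143, Csf1r to -0.404, Adgre1 to -0.242, Cd68 to -0.519, Mpeg1 to -0.437 and Oas3 to -0.313. Quantile normalisation also moved the uncalled changes of Ccl6 to -0.412 and of Stat2 to -0.426. Both then passed the test (limma, adjusted p = 4.59e-07 and 0.000525). Median centring turned Ccl6 to 0.043 and Stat2 to 0.052. The scaling itself moves these values, and the cause of the other changes was not tested. Leaving out 1 library gave the uncalled changes of Ifi44 a range from -0.119 to 0.269, of Stat2 from -0.115 to 0.089 and of Ccl6 from -0.065 to 0.046, and turned Cd68 to -0.030 and -0.005. The difference of Cnr2 lost its call without any of 9 of the 12 libraries, that of Tnfsf15 without 7 and that of Ptgs2 without 6, and Il27 and Cd300lb lost it under quantile normalisation.

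Without counts the depth behind a value is unknown, so no counting interval is given. With 3 libraries a group, the p-values rest on a spread shared over 16 residual degrees of freedom. Genes near the lower end of the scale, such as the Ifna copies, carry the least certain sizes of change, and small shifts of highly expressed genes depend on the scaling.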
